A study of Mus musculus with 6 samples.

Results

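Aminoacyl-tRNA synthetases load each transfer RNA with its amino acid and so set the supply of charged tRNA for every ribosome in the cell. Mammals keep separate nuclear genes for the enzymes of the cytosol and for those imported into mitochondria, where they serve the few proteins encoded by mitochondrial DNA. Many cytosolic members are targets of ATF4, the transcription factor of the amino acid response, which is translated when uncharged tRNA activates the kinase Gcn2 and eIF2 is phosphorylated. The set described here was chosen by name, as 36 listed synthetase genes, and all 36 were among the 19571 genes of the table. Of these, 20 encode cytosolic enzymes, 2 of them (Gars and Kars) supplying mitochondria as well, and 16 encode enzymes of mitochondria only.

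The libraries hold RNA of E14, a mouse embryonic stem cell line that needs no feeder cells, grown in serum with LIF, the cytokine that maintains self-renewal. The groups are 3 samples of Dot1L-/- cells, made by CRISPR/Cas9 knock-out (KO) of Dot1l, the histone H3 methyltransferase that acts on the nucleosome core, and 3 wild type (WT) samples; both groups carry the label day 14, with no starting point given. The labels do not say whether the KO samples come from 1 clone or several, or whether replicates are separate cultures, so the p-values rest on a spread between samples that may be technical. The question is whether loss of Dot1l changes the RNA level of the synthetases.

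The gene table is the authors' own comparison, with a mean normalized count over the 6 libraries, a log2 fold change, its standard error (SE) and a p-value per gene, and it holds no values per sample. Library depth and the values of single samples are therefore unknown, as is whether the groups overlap. Which genotype a positive fold change favours is not stated by the table. Positive values were taken to mean more RNA in KO cells, on the strength of literature in which Dot1l represses the retrovirus MERVL and its 2-cell program; under the other reading every direction below turns around. Dot1l (chromosome 10, 80755206 to 80795461 in mm10) had a log2 fold change of -0.16 ± 0.25 (SE) with adjusted p = 0.845 by DESeq2 in the authors' deposited table, so its RNA does not settle the direction. A CRISPR/Cas9 edit need not lower the RNA. The cells carried their stem cell markers: Pou5f1, Sox2, Nanog, Zfp42 and Esrrb had means of 13734 to 31377 normalized counts in the authors' deposited table, and 0 of the 5 passed the test. Markers of other states were counted at an adjusted p under 0.05 in the authors' deposited table (DESeq2). Called higher were 3 of 5 markers of the 2-cell-like state, 3 of 4 of primitive endoderm and 3 of 6 of fibroblasts. Called lower were 0, beside 5.34% higher and 1.25% lower over all genes tested. That the 2-cell-like markers count as higher follows from the reading of the sign chosen above, and is no support for that reading. The other 3 fibroblast genes had negative log2 fold changes that did not pass: Acta2 -2.25 ± 0.84, Timp1 -0.67 ± 0.36 and Vim -0.48 ± 0.25. Foxa2 and Postn were listed too but had no values. The summed levels implied for WT and KO were 23.2 and 1365 normalized counts for the 2-cell-like list, 133 and 579 for primitive endoderm, and 11000 and 8832 for fibroblasts, the last being mostly Vim. Their part in the values below was not tested.

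None of the synthetase genes passed the test between genotypes. At an adjusted p under 0.05 in the authors' deposited table (DESeq2), 0 of 36 were called, against 6.58% of the 19564 genes tested, 5.34% higher and 1.25% lower. Synthetase genes are abundant, and fewer abundant genes were called: 3.85% of the 10763 genes at or above the mean of the least abundant synthetase, Wars2, and 2.06% of the 1503 with a mean of at least 5000. At an unadjusted p under 0.05, 1 synthetase gene was higher and 0 were lower, against 16.2% of all genes tested. The median log2 fold change was -0.11 over the 36 synthetase genes, with 13 values above 0 and 23 below, beside -0.02 over all genes. The sign of that median depends on the scaling: centred on genes of like mean level, it was 0.08.

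**Figure D1:**
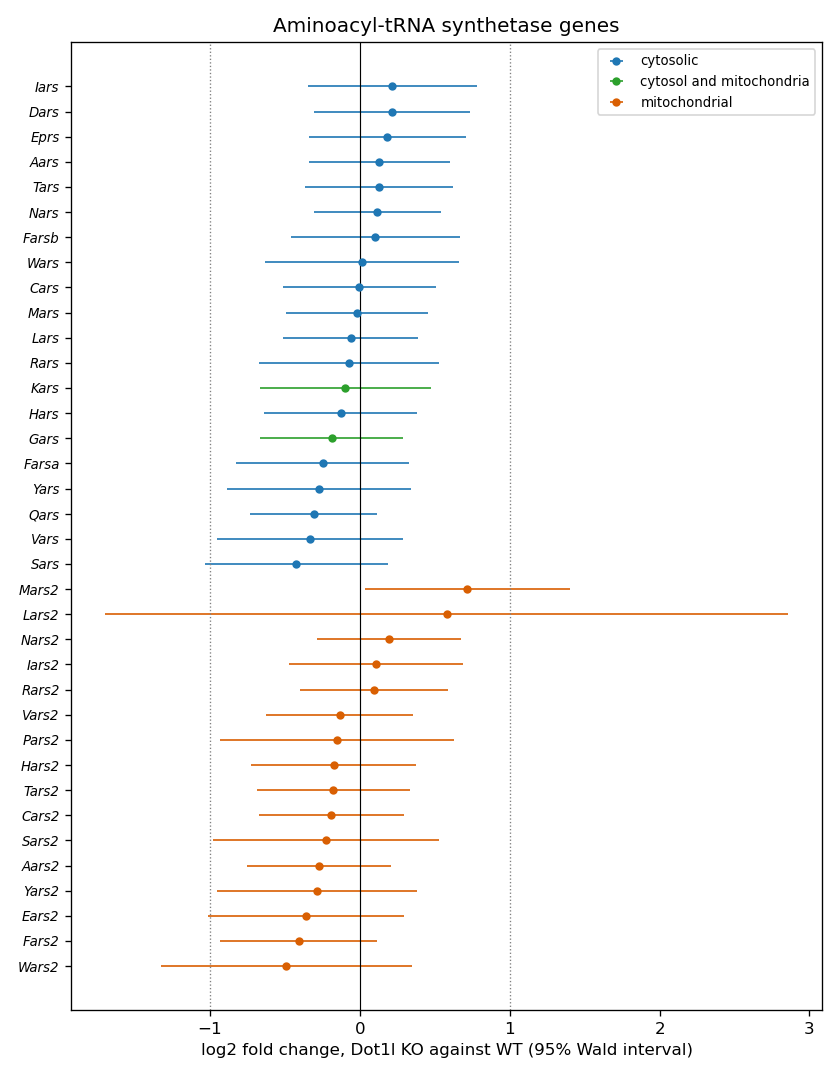
The log2 fold change (Dot1l KO against WT) of each of the 36 synthetase genes is plotted on the horizontal axis with its 95% Wald interval as a bar, with cytosolic genes above and mitochondrial genes below; dotted lines mark 2-fold either way. The interval of Mars2 alone leaves out 0, before adjustment, and that of Lars2, from -1.70 to 2.86, is the widest.

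The intervals give, gene by gene, the size of change allowed by the spread between these samples, which may be technical. They leave out the choice of scaling. For 31 of the 36 genes the 95% Wald interval lay inside 2-fold in either direction, and this held for 33.0% of all genes tested, for 56.5% of those at or above the mean of Wars2 and for 68.3% of those with a mean of at least 5000. The exceptions were Mars2, Lars2, Wars2, Ears2 and Sars. The median SE of the members was 0.27 on the log2 scale, and missing the threshold does not show that the genotypes have equal levels.

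**Figure D2:**
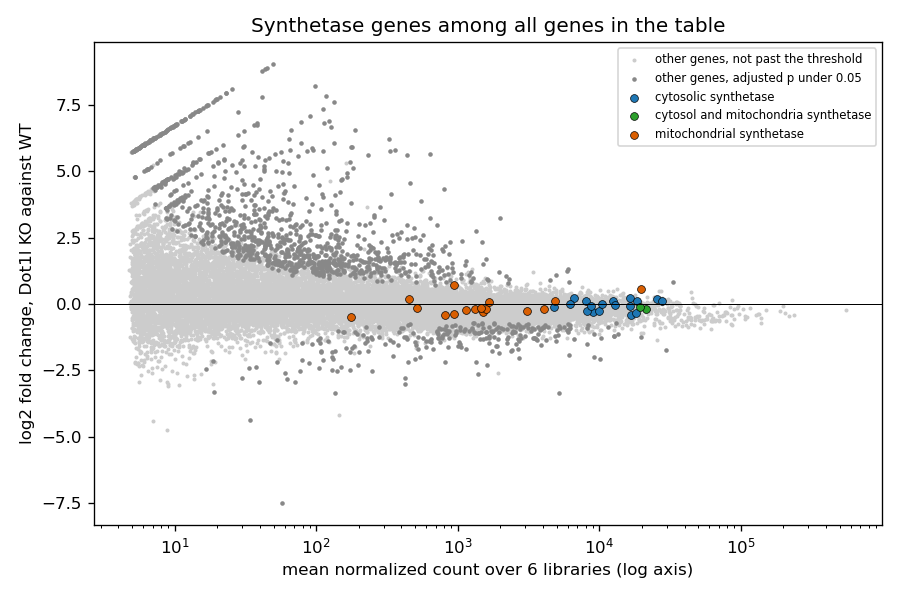
Each point is a gene, with its mean normalized count over 6 libraries on the horizontal log axis and its log2 fold change on the vertical axis; synthetase genes are coloured by compartment and darker grey marks other genes at an adjusted p under 0.05. The 36 synthetase genes have log2 fold changes from -0.49 to 0.72 and means from 174.9 to 27623.

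Fold changes of the cytosolic enzymes spanned a narrow range. Over the 20 genes the authors' deposited table has log2 fold changes between -0.42 and 0.22, with a median of -0.04 and adjusted p of at least 0.543 (DESeq2). Centred on genes of like mean level, the median turned to 0.16. In the multi-synthetase complex, a cytosolic assembly of 8 synthetase polypeptides on the scaffold proteins Aimp1, Aimp2 and Eef1e1, 8 of 8 members had intervals inside 2-fold. So had 11 of the 12 cytosolic genes outside it, beside 68.3% of all genes with a mean of at least 5000. Qars, the glutaminyl enzyme of the complex (chromosome 9, 108507706 to 108515941), had the smallest p of the cytosolic genes, with a log2 fold change of -0.31 ± 0.22 and adjusted p = 0.543 by DESeq2 in the authors' deposited table. Its level implied by the mean and the fold change was 9942 normalized counts in WT and 8030 in KO. Eprs, which joins the glutamyl and prolyl enzymes in 1 chain, had 0.18 ± 0.27 and Iars, the isoleucyl enzyme, 0.22 ± 0.29 as log2 fold changes in the authors' deposited table. Lars, the leucyl enzyme that also senses leucine for mTORC1, stood at -0.06 ± 0.23 in the authors' deposited table. These values lie on both sides of 0, each smaller than 2 errors.

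Among cytosolic enzymes outside the complex the lowest value was that of Sars, the seryl enzyme (chromosome 3, 108424865 to 108445209), with a log2 fold change of -0.42 ± 0.31 and adjusted p = 0.566 (DESeq2) in the authors' deposited table. Its 95% interval, -1.03 to 0.19, reached just past 2-fold lower. Vars, the valyl enzyme (chromosome 17, 35000987 to 35016322), had -0.33 ± 0.32 with adjusted p = 0.696 by DESeq2 in the authors' deposited table. The phenylalanyl enzyme is built from the subunits Farsa and Farsb, which had log2 fold changes of -0.25 ± 0.29 and 0.10 ± 0.29 in the authors' deposited table, with intervals that overlap widely. Aars, the alanyl enzyme and the synthetase gene with the highest mean count, was at 0.13 ± 0.24 in the authors' deposited table, and Cars, the cysteinyl enzyme, at -0.0027 ± 0.26. By catalytic fold, class I genes had a median log2 fold change of -0.07 and class II genes of -0.15, Eprs being left out as a member of both. Both signs turned under that centring, to 0.13 for class I and 0.012 for class II.

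Mitochondrial enzymes spanned a wider range. The authors' deposited table has them between -0.49 and 0.72 as log2 fold changes, with 11 of 16 values below 0 and a median of -0.18, which was -0.0072 under that centring. The upper end rests on Mars2 and Lars2, at 0.72 and 0.58, and the next value was 0.20 for Nars2. Mitochondrial genes are also less abundant, with a median mean of 1400 normalized counts beside 12626 for the cytosolic genes. Mars2, the mitochondrial methionyl enzyme (chromosome 1, 55237177 to 55248470, a single exon of 11294 bases), had the smallest p of all members. Its log2 fold change was 0.72 ± 0.35 in the authors' deposited table, with p = 0.0395 before and adjusted p = 0.269 after adjustment by DESeq2. The implied levels were 710 normalized counts in WT and 1168 in KO, and the 95% interval ran from 0.03 to 1.40. Mars, its cytosolic counterpart, had -0.02 ± 0.24 as its log2 fold change in the authors' deposited table.

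Other mitochondrial members with small p had negative values that did not pass. Fars2, the phenylalanyl enzyme (chromosome 13, 36117412 to 36726280), was at -0.41 ± 0.27 with adjusted p = 0.494, by DESeq2 in the authors' deposited table. Wars2, the tryptophanyl enzyme (chromosome 3, 99141068 to 99239186), was the least abundant member, with a mean of 174.9 normalized counts and a log2 fold change of -0.49 ± 0.43 in the authors' deposited table, adjusted p = 0.657 by DESeq2. Aars2, the alanyl enzyme (chromosome 17, 45506841 to 45520843), was at -0.27 ± 0.24, adjusted p = 0.667, and Ears2, the glutamyl enzyme (chromosome 7, 122037213 to 122067263), at -0.36 ± 0.33, adjusted p = 0.684, both by DESeq2 in the authors' deposited table. Each of these fold changes is smaller than 2 errors.

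Lars2, the mitochondrial leucyl enzyme (chromosome 9, 123366927 to 123462666), stood apart by its error. The authors' deposited table gives it a mean of 19862 normalized counts, more than any other mitochondrial member, and a log2 fold change of 0.58 ± 1.16, adjusted p = 0.885 by DESeq2. That SE is the second largest of the 1504 genes with a mean of at least 5000, whose median SE was 0.29. Among the other 35 synthetase genes the SE lay between 0.22 and 0.43. The 95% interval of Lars2, -1.70 to 2.86, therefore covers a fall and a rise of several fold. Of the 50-base words in its annotated transcripts, 0.196% occur in annotated transcripts of another gene, and other sequence was not compared. Which libraries carry the spread is not shown by a table without samples, and its cause was not tested.

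**Figure D3:**
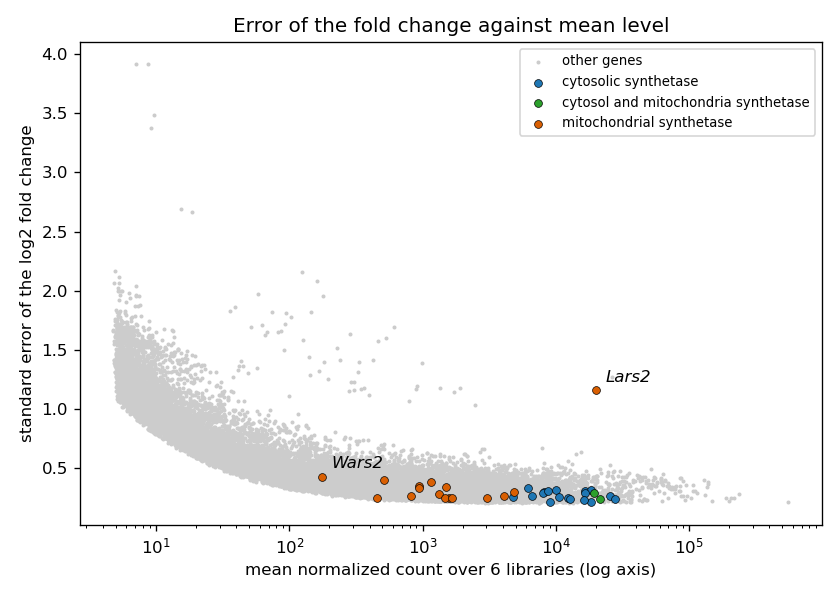
The SE of the log2 fold change is plotted against the mean normalized count over 6 libraries (log axis) for all genes, synthetase genes in colour. Lars2 lies at an SE of 1.16 and Wars2 at 0.43, and the remaining members lie below Wars2.

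Cytosolic synthetase genes were more abundant than mitochondrial ones. Expressed per kb of merged annotated exon, so that genes of different length can be set side by side, cytosolic genes had mean levels of 1367 to 6900 normalized counts per kb and mitochondrial genes of 29.4 to 1791. The medians were 2843 and 290.1 normalized counts per kb. The highest levels were those of Gars (chromosome 6, 55038007 to 55079500), the glycyl enzyme, at 6900, of Kars (chromosome 8, 111993443 to 112011323), the lysyl enzyme, at 4350, of Nars (chromosome 18, 64499647 to 64516652), the asparaginyl enzyme, at 4227 and of Mars (chromosome 10, 127296221 to 127311786), the methionyl enzyme, at 3742 normalized counts per kb. Gars and Kars are the members whose single gene serves both compartments. Their log2 fold changes were -0.19 ± 0.24 and -0.10 ± 0.29, with that of Nars at 0.12 ± 0.22, in the authors' deposited table. In all, 34 of the 36 genes lay above the median of all genes, 78.4 normalized counts per kb, the exceptions being Wars2 and Nars2.

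Every mitochondrial gene was set beside the cytosolic gene for the same amino acid, in 17 pairings over the 16 genes, with Eprs standing for both glutamate and proline and Fars2 set beside both subunits. In 17 of 17 pairings the cytosolic gene had the higher level per kb. The median ratio was 7.74, from 1.70 for Lars over Lars2 to 65.1 for Nars over Nars2. With the length of the longest coding transcript in place of all exons, a choice made after the data were seen, 16 of 17 pairings kept that order, and Lars over Lars2 became 0.81. The order of neighbouring genes in such a list cannot be tested, since the spread over samples is unknown and the level per kb depends on the annotated length.

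**Figure D4:**
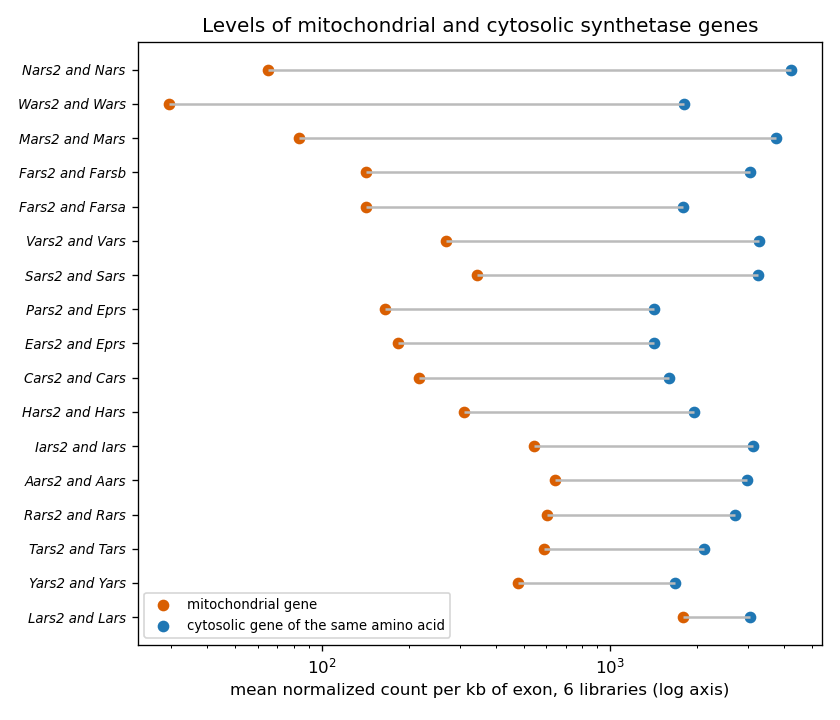
Each line joins a mitochondrial synthetase gene to the cytosolic gene for the same amino acid, at their mean normalized counts per kb of exon over 6 libraries (log axis). The cytosolic gene lies to the right in 17 of 17 pairings, by a ratio of 1.70 to 65.1.

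A motif of the amino acid response was present in some cytosolic promoters. The CARE, the composite element bound by ATF4 with a C/EBP partner, was searched as TGATGNAA on both strands from 250 bases before to 50 after the RefSeq start (GRCm38.p6), in the 27 members matched to that table. The 9 members without a match were not searched: cytosolic Cars, Hars, Lars, Nars, Rars, Vars and Wars, and mitochondrial Hars2 and Pars2. The motif was found in 5 of 13 cytosolic genes and 0 of 14 mitochondrial genes, beside 4.51% of the 27025 genes of the table, and no test of that share was made. GENCODE places some of these starts elsewhere. The 5 are Aars, Gars, Iars, Tars and Yars, and Asns, the asparagine synthetase gene and a textbook ATF4 target, is shown beside them. The sequences below run 5′ to 3′ on the strand of the gene with the match in capitals, which reads TTGCATCA or TTTCATCA where it lies on the opposite strand, and they show why these genes are counted as holding the element.
Aars, 112 bases before the start (chr8:111033690-111033777, plus strand): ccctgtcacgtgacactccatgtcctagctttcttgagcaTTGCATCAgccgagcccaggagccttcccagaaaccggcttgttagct
Aars, at transcribed base 10 (chr8:111033811-111033871, plus strand): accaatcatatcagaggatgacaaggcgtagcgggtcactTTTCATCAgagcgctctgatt
Gars, 30 bases before the start (chr6:55037931-55038018, plus strand): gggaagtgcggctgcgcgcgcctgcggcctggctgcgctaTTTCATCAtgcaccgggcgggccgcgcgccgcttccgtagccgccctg
Iars, at transcribed base 8 (chr13:49682097-49682159, plus strand): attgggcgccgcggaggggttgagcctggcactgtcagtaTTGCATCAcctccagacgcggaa
Tars, 15 bases before the start (chr15:11399629-11399713, minus strand): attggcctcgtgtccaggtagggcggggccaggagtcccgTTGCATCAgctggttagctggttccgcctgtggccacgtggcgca
Yars, at transcribed base 4 (chr4:129189866-129189932, plus strand): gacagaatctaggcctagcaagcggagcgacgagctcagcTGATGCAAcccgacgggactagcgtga
Asns, 23 bases before the start (chr6:7693185-7693272, minus strand): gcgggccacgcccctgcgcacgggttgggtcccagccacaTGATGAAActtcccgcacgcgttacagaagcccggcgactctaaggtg
The 5 synthetase genes with a match had log2 fold changes between -0.27 and 0.22 in the authors' deposited table, and their median was 0.13, and the 22 matched genes without one had a median of -0.15. Centred on genes of like mean level, the medians were 0.33 and 0.030. All 5 genes with a match are cytosolic and 14 of the 22 without one are mitochondrial, so these medians mix the motif with the compartment. None of either passed the test, a match is no evidence of binding in these cells, and its absence says only that these letters are not in the window.

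ATF4 and its targets were read as a further measure of the amino acid response. Of 39 listed genes, 0 passed the test in either direction in the authors' deposited table (DESeq2), and 4 were higher and 0 lower at an unadjusted p under 0.05, where 10.6% of all genes tested were higher and 5.55% lower. The 4 of 39 is close to the share over all genes. The list is more abundant, however, with a median mean of 2783 normalized counts beside 278 over all genes tested. No share by that rule was computed for genes of like level. Over the 39 genes the median log2 fold change was 0.13, or 0.29 centred on genes of like mean level. Asns had 0.58 ± 0.25 with adjusted p = 0.193 by DESeq2 in the authors' deposited table, at a mean of 20055 normalized counts. Vldlr, a lipoprotein receptor gene induced by ATF4, had 0.90 ± 0.40 with adjusted p = 0.205 by DESeq2 in the authors' deposited table. Atf4 itself was at -0.13 ± 0.51 in the authors' deposited table, and its RNA does not report its translation. Ddit3, the stress factor CHOP, whose gene overlaps the end of Mars on the opposite strand, was at 0.16 ± 0.42 in the authors' deposited table.

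In the eIF2 kinase arm, 0 of 16 genes rose and 1 fell at an adjusted p under 0.05. Only part of this list is particular to uncharged tRNA, which acts through the kinase Gcn2. The list includes the eIF2 kinases, eIF2, its exchange factor eIF2B and the phosphatase subunits. Its share called lower was 6.25%, beside 1.25% called lower over all genes tested. In either direction, 6.58% of all genes tested were called, and 3.85% of those at or above the mean of Wars2. All listed genes lie above that mean. With 1 call, whether the list differs from these shares was not tested. The call was Impact (chromosome 18, 12955852 to 12992950), an imprinted gene in mouse whose protein competes for Gcn1 and so restrains the kinase Gcn2. Its log2 fold change was -0.84 ± 0.28 with adjusted p = 0.0429 by DESeq2 in the authors' deposited table, at a mean of 5225 normalized counts. The call was lost when fold changes were centred, on all genes or on genes of like level, and under stricter or rescaled tests. Eif2ak4, which encodes Gcn2, had -0.30 ± 0.33, and Gcn1l1, which encodes its activator Gcn1, -0.04 ± 0.29, as log2 fold changes in the authors' deposited table. Ppp1r15a, the stress-induced phosphatase subunit GADD34, had -0.53 ± 0.33 with adjusted p = 0.466 by DESeq2 in the authors' deposited table.

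Proteins that work with the synthetases did not pass either. Of 16 partners, which include the complex scaffolds, the mitochondrial glutamyl-tRNA amidotransferase, proofreading enzymes, the selenocysteine pathway and the tRNA exporter Xpot, 0 were called in either direction by DESeq2 in the authors' deposited table, with 0 higher and 1 lower at an unadjusted p under 0.05, near the 5.55% of all genes that were lower by that rule. That gene was Dtd1, a deacylase that removes D-amino acids from tRNA, at -0.84 ± 0.33 with adjusted p = 0.122 by DESeq2 in the authors' deposited table. Qrsl1, a subunit of the amidotransferase that makes mitochondrial glutaminyl-tRNA, had -0.39 ± 0.23 with adjusted p = 0.401 by DESeq2 in the authors' deposited table. The scaffolds Aimp1, Aimp2 and Eef1e1 had log2 fold changes of -0.23 ± 0.35, -0.05 ± 0.28 and -0.0027 ± 0.28 in the authors' deposited table.

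**Figure D5:**
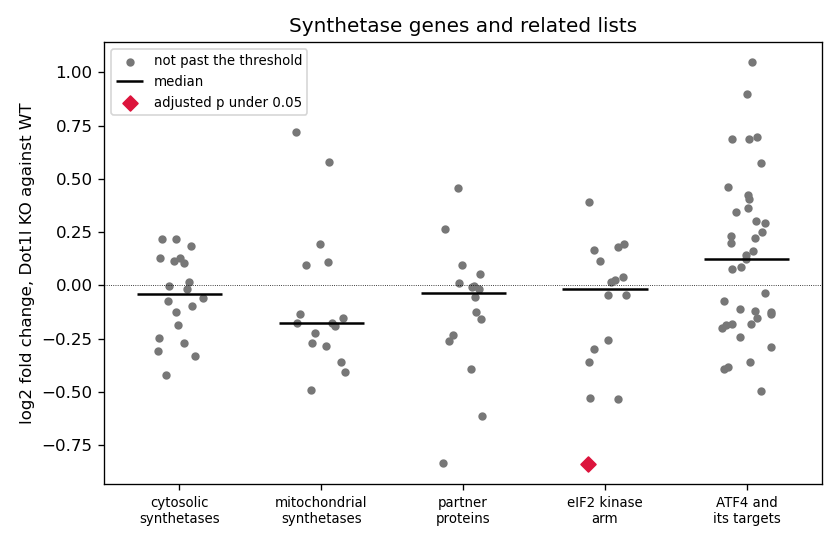
Points are the log2 fold changes (Dot1l KO against WT) of single genes in 5 lists and bars their medians. The medians lie between -0.18 for mitochondrial synthetases and 0.13 for ATF4 and its targets as deposited, and Impact is the only gene at an adjusted p under 0.05.

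Some members share sequence or position with other genes, and the sources used here do not give how the counting treated strand and shared reads. In 8 of the 36 genes at least 5% of the 50-base words of the annotated transcripts occur in another gene's transcripts, while 13 share none. The largest shares were 22.7% for Iars2, nearly all with Rab3gap2 on the opposite strand, and 13.8% for Aars, mostly with Exosc6. Hars and Hars2, the cytosolic and mitochondrial histidyl enzymes, start head to head on chromosome 18 with annotated first exons that overlap, and reads from the overlap cannot be told apart without strand. Their log2 fold changes were -0.13 ± 0.26 for Hars and -0.17 ± 0.28 for Hars2 in the authors' deposited table.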

How the data were processed

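RNA from 3 Dot1l KO and 3 WT samples was compared. HISAT2 2.1.0 (build mm10), featureCounts 2.0.0 and DESeq2 are the authors' tools per the submitters' processing notes; the sources used here give no settings. Per the file headers, the deposited signal is the mean normalized count, the log2 fold change comes with its SE, the score is the Wald statistic, and the p-value has a Benjamini-Hochberg adjustment over all genes. Statistic and adjustment were recomputed and matched; 7 genes have no p. Without values per sample no model was refitted and no counting interval is given.

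Intervals are 95% Wald intervals from the authors' values. Levels implied per genotype assume equal group sizes. Exon lengths and gene coordinates are from GENCODE M21 (GRCm38, the assembly of mm10) and promoters from RefSeq (GRCm38.p6). Python 3.11.15, pandas 2.3.3 and scipy 1.17.1 were used, and recomputed tests were tested on simulated data. Alternatives are given in the closing section. The members and lists were chosen with earlier results of these data known. Values are printed for the 8 members with the smallest p, the 4 with the highest level per kb, and, of each related list, members past the threshold and the 2 with the smallest p; others, Lars2 among them, were picked with their values in view. The table of single transposable element copies gives no coordinates, so a planned count of copies inside synthetase genes was not made.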

Additional observations from a re-analysis of the deposited data

How the results depend on the processing

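The count of synthetase genes called was 0 under each of the 7 alternatives, as were those of ATF4 targets and of partners; the lowest adjusted p of a synthetase gene ranged from 0.151 (centred within bins of mean count) to 1 (Bonferroni). The single call in the eIF2 arm, Impact, became 0 at an adjusted p under 0.01, with an absolute log2 fold change of at least 1, under Bonferroni, under both centrings and with scaled Wald statistics. Over the whole table the 1288 calls became 767 at 0.01, 309 under Bonferroni, 737 at a mean count of at least 50 and 455 with scaled statistics. They became 911 when centred within 20 bins of mean count, 1297 when centred on the table median and 1200 with an absolute log2 fold change of at least 1. Centring within 20 bins of mean count shifts members by the medians of their bins (-0.20 to 0.17), and turned 9 log2 fold changes from below to above 0, none of them called: Cars 0.20, Gars 0.012, Hars 0.045, Kars 0.10, Lars 0.14, Mars 0.18, Rars 0.13, Cars2 0.0020 and Vars2 0.059. Centring on the table median turned Cars to 0.016 and Mars to 0.00020. No paired analysis was possible because the table holds no values per sample, and for the same reason no replicate could be left out. The depth behind these values is unknown.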
